A study of Homo sapiens with 12 samples.

Results

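The genes described here are 45 interferon-stimulated genes, that is, genes whose transcription interferons are known to raise. They were picked out by symbol from a list of names, and each was found among the 58735 genes of the deposited expression table. The rule holds no level or fold, but the list was chosen with earlier results of these data known. RNA was sequenced in 12 libraries of 2 lines of human neuroblastoma, a childhood tumour that arises from the developing sympathetic nervous system. Each line was labelled either as carrying a hairpin against TSPYL5, a member of the TSPY family of nucleosome-binding proteins, or as wild type with a control hairpin, with 3 libraries in every one of the 4 groups. The series is about TSPYL5 and stem-cell properties of neuroblastoma, and a comparison of the 45 genes asks whether their levels follow the hairpin, the line or neither. The first line is SK-N-SH in every label, and its groups are SK-N-SH knockdown (titles with shL5, genotype TSPYL5 knockdown) and SK-N-SH control (titles with shNC, genotype WT). The other line is SK_N_BE2 in the titles and SH-SY5Y in the remaining labels. It is referred to as the second line, with a knockdown and a control group. No group was treated with an agent, interferon included, and the labels give neither the time after hairpin delivery nor whether a group was 1 clone or a pool.

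Interferons bind receptors that activate the kinases JAK1, JAK2 and TYK2. Type I interferons lead to a complex with STAT2 and IRF9 that binds the interferon-stimulated response element (ISRE), and interferon gamma acts through gamma-activated sites (GAS). The target genes encode RNA sensors, inhibitors of virus entry and replication, ubiquitin-like modifiers and the transcription factors of the pathway itself, and many keep a basal level without added interferon. Neuroblastoma cultures hold a noradrenergic and a mesenchymal state, and the mesenchymal state is known for higher levels of innate immune genes.

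Promoters of 6 of the genes are printed because they carry the contrast that runs through the results. ISG15, IFI6 and IFIT1 were lower in libraries labelled SK-N-SH knockdown and higher in second line knockdown, and IFIT5, OAS3 and BST2 went the other way. Each sequence is the 250 bases before the RefSeq transcription start on GRCh38.p14, read 5′ to 3′ on the strand of the gene, and capitals mark ISRE cores. The ISG15 promoter is chr1:1013247-1013496 on the plus strand, and that of IFI6 is chr1:27672193-27672442 on the minus strand. The IFIT1 promoter is chr10:89392373-89392622 and the IFIT5 promoter is chr10:89414318-89414567, both on the plus strand. The OAS3 promoter is chr12:112938224-112938473 on the plus strand, and the BST2 promoter is chr19:17405631-17405880 on the minus strand.
ISG15: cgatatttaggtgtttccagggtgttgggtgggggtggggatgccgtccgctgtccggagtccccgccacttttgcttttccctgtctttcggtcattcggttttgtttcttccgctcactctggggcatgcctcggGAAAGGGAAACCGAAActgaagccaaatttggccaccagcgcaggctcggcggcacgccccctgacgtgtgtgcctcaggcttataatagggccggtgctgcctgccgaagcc
IFI6: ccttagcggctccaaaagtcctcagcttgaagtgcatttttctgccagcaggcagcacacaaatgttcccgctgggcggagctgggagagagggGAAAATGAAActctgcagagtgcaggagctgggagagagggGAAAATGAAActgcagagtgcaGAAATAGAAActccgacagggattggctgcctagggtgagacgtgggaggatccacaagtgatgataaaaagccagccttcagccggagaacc
IFIT1: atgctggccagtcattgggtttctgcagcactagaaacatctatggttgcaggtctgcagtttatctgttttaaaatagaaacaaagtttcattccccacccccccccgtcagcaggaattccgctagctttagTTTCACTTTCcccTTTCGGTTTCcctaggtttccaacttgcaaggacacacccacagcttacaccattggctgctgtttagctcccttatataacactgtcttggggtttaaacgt
IFIT5: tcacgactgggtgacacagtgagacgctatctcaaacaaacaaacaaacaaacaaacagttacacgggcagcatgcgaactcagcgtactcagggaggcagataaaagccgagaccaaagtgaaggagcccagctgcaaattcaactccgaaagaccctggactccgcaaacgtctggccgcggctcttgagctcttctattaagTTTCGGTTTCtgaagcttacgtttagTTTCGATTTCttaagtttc
OAS3: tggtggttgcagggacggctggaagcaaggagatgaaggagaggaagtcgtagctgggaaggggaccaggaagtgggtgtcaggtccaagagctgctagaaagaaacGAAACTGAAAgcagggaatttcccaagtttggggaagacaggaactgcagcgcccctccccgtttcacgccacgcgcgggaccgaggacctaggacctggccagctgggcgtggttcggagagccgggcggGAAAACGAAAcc
BST2: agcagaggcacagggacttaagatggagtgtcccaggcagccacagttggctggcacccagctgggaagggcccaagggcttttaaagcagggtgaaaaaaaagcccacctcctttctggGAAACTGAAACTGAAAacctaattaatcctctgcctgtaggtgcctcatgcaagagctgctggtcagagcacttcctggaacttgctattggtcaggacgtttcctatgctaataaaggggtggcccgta

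The ISRE core searched was TTTC, any 2 bases and TTTC, which reads GAAA, any 2 bases and GAAA on the other strand, and the GAS core was TTCNNNGAA, on both strands of windows from 250 bases before to 50 bases after the start. RefSeq windows were matched for 34 of the 45 genes. An ISRE core was found for 23 of these 34 genes (67.6%), against 4.38% of the 27305 genes with a window. A GAS core was found for 11 (32.4%), against 9.38% of all genes, and in 5 genes (BST2, EPSTI1, IFI27, IFITM1 and MX1) it overlapped an ISRE core. With positions counted from the start and negative before it, IFI6 had 3 ISRE cores within -156 to -84, and ISG15 had 2 overlapping cores within -113 to -98. IFIT1 had 2 cores within -116 to -94, and IFIT5 had cores beginning at -45 and -19 and another that spans the start and is not in the printed stretch. ISRE cores were found in 3 of the 4 genes with a window that were higher in libraries labelled SK-N-SH knockdown (IFIT5, OAS3 and BST2, and not OAS1), and in 12 of the 20 that were lower. IFITM2, IFIT2, IRF7, USP18, TRIM22, GBP2 and PML were also lower but had no window. With only 4 higher genes, these counts cannot show whether ISRE cores part the genes by direction. A match describes the letters and is not a measured binding site.

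**Figure D1:**
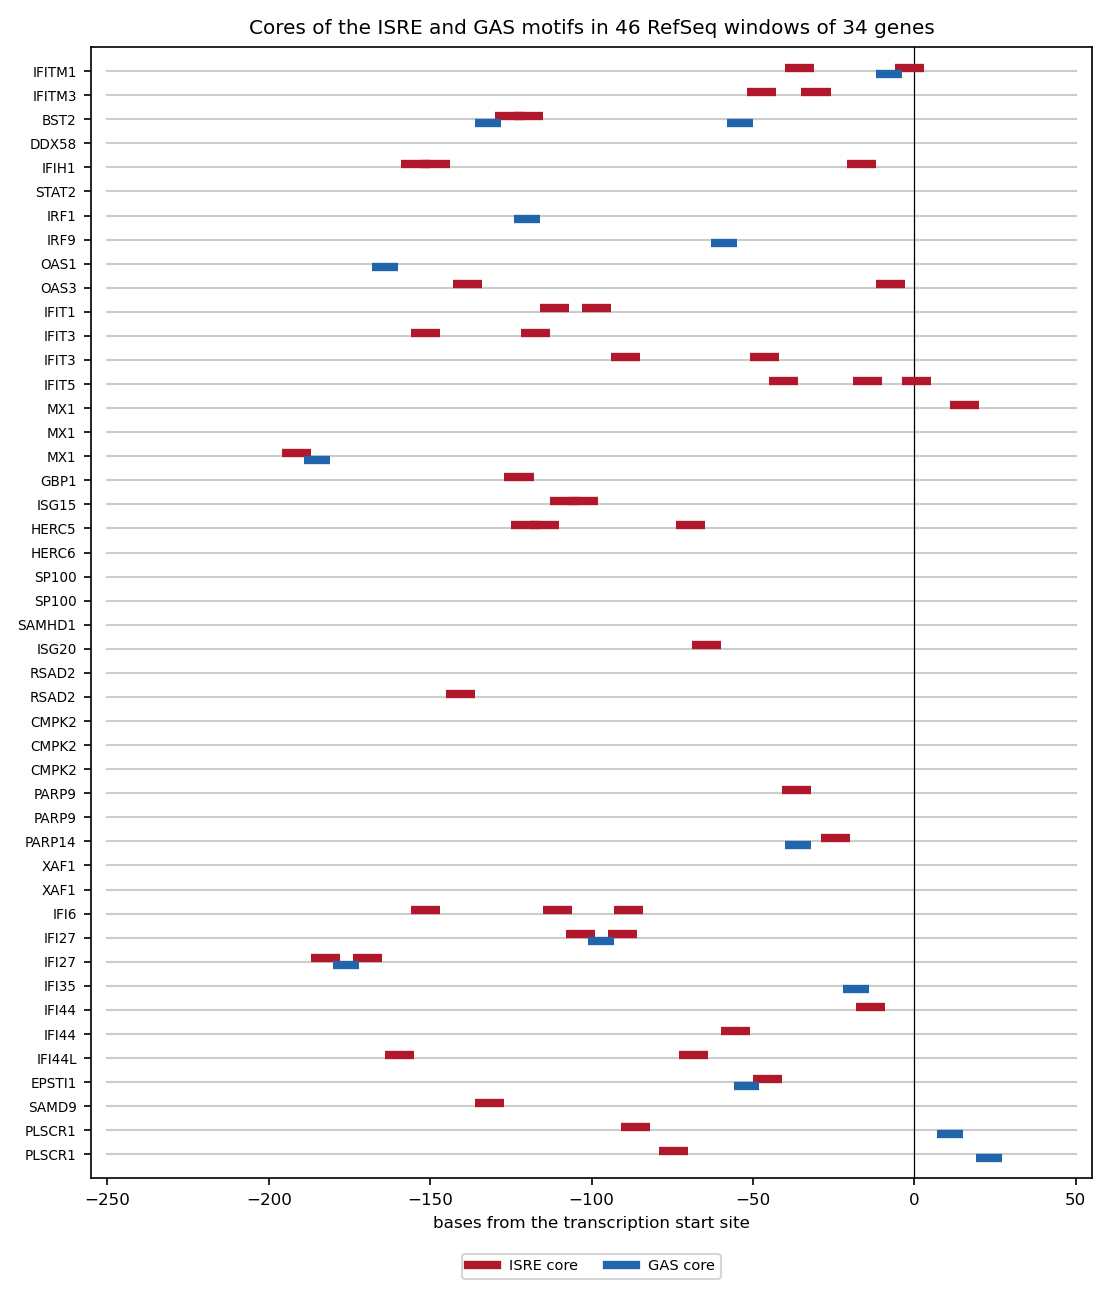
Positions of ISRE cores (red) and GAS cores (blue) in 46 RefSeq promoter windows of 34 interferon-stimulated genes; the horizontal axis is the distance in bases from the transcription start, 1 grey line per window, with some genes having several windows. The 47 ISRE matches, 43 of them at distinct sites since windows of a gene can overlap, lie from -196 onwards, and IFI6, IFIT5, OAS3 and BST2 each hold several.

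The labels have to be set beside the data before any direction is given. TSPYL5 itself had 17.1, 18.3 and 17.8 FPKM (reads scaled for gene length and library size) in libraries labelled SK-N-SH knockdown, against 13.1, 13.4 and 12.2 FPKM in those labelled SK-N-SH control. It had 13.3, 12.4 and 12.6 FPKM in second line knockdown, against 24.0, 24.4 and 25.8 FPKM in second line control. The target was thus higher under the knockdown label in SK-N-SH, and groups are named by label throughout. Over the 15856 genes tested, libraries labelled SK-N-SH knockdown correlated with second line control at r = 0.986 to 0.987 and with SK-N-SH control at 0.705 to 0.724, and MYCN averaged 1028 FPKM in SK-N-SH knockdown, 0.0408 FPKM in SK-N-SH control, 0 reads in second line knockdown and 1040.4 FPKM in second line control. Second line knockdown correlated with SK-N-SH control at r = 0.960 to 0.975, a weaker likeness. Opposite folds in the labelled lines follow from the likeness within both pairs. The folds of one line are thus no independent support for those of the other. The hairpin and the origin of the cells cannot be told apart within a labelled line. Comparisons across the lines are therefore given beside those within them. Libraries held 15425460 to 19249018 reads, and mitochondrial genes took 6.245% to 8.229% of them. The labels do not say that replicates were separate cultures, so each p-value reflects just the spread among these libraries, which may be technical.

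Summed over the 45 genes, libraries labelled SK-N-SH knockdown had 54.36 to 55.84 FPKM, against 419.3 to 492.1 FPKM in SK-N-SH control. The sum was 334.7 to 417.4 FPKM in second line knockdown, against 50.52 to 52.8 FPKM in second line control. IFITM2 and IFITM3 made up 65.9% to 69.7% of the sum in SK-N-SH control and 65.5% to 70.0% in second line knockdown, and at most 9.87% in the other groups. A mean of at least 1 FPKM was reached by 13 genes in SK-N-SH knockdown, 30 in SK-N-SH control, 28 in second line knockdown and 11 in second line control. Of the 45 genes, 33 had higher means in both SK-N-SH control and second line knockdown than in both other groups, and 10 had lower means there (IFI27, IFIT5, MX2, OAS1, OAS3, BST2, XAF1, RSAD2, EPSTI1 and CMPK2). Among these 10, MX2 and EPSTI1 had 7 reads each in all and XAF1 had 14, too few to order the groups. OAS2 and PLSCR1 had another order. In bulk RNA, fewer cells that hold a transcript and less of it per cell cannot be told apart.

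**Figure D2:**
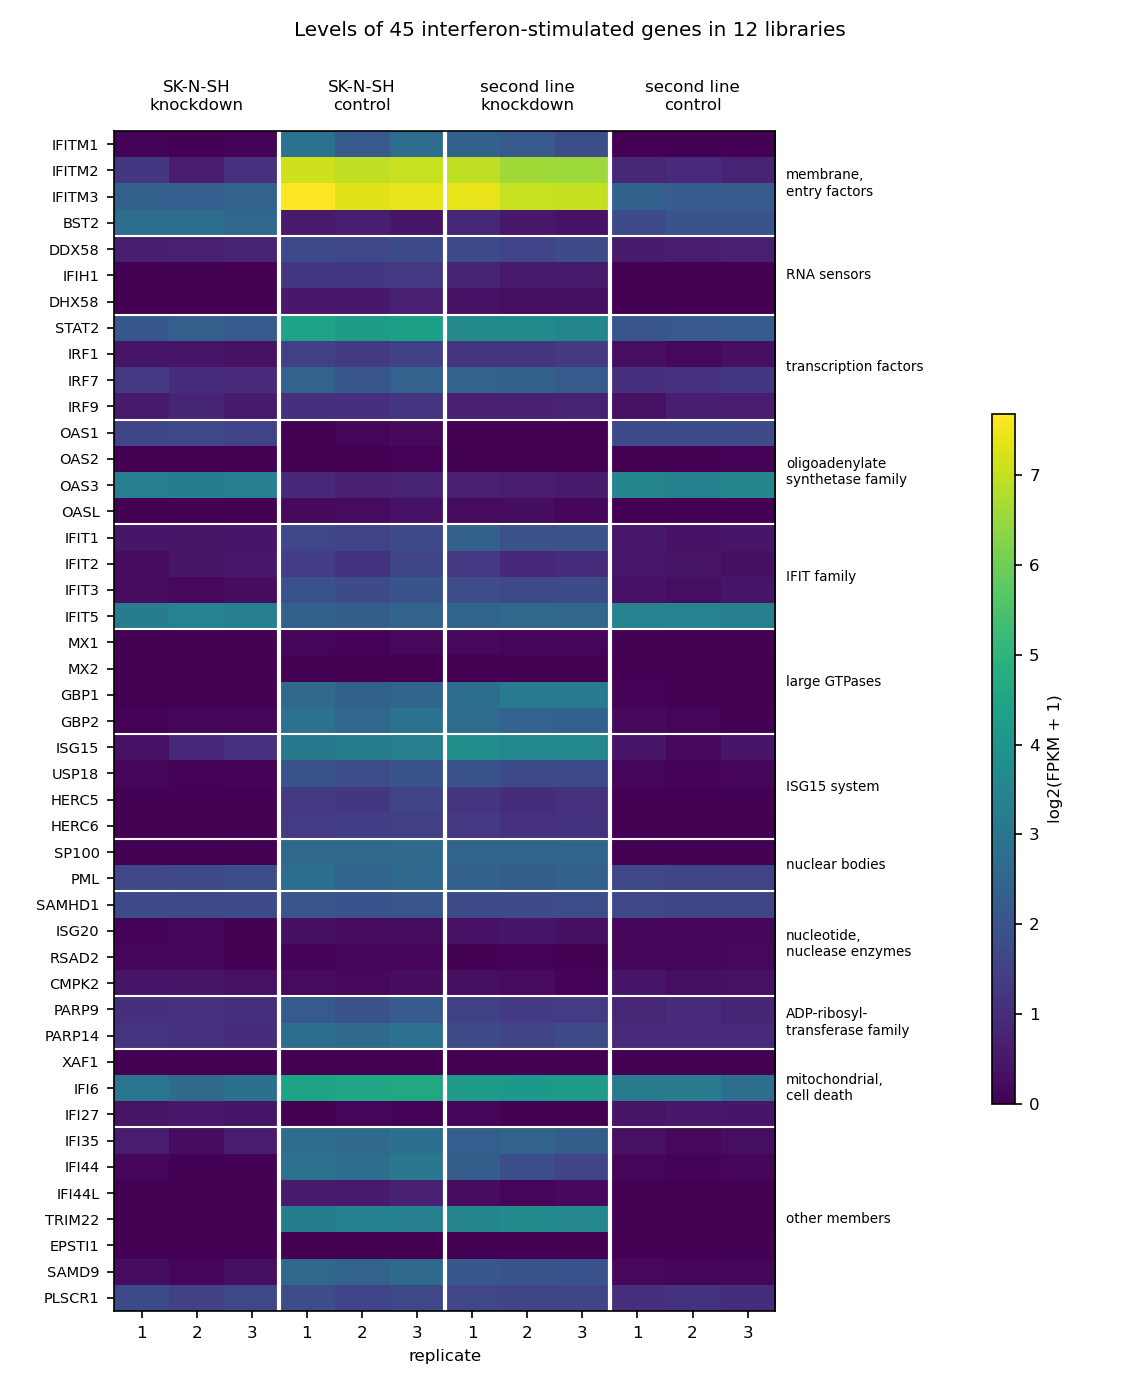
Level of each of the 45 interferon-stimulated genes as log2(FPKM + 1) (colour) in the 12 libraries (columns, grouped by label, with the replicate number below), genes in rows by role. IFITM2 and IFITM3 are the brightest rows in SK-N-SH control and second line knockdown, while OAS1, OAS3, IFIT5 and BST2 are brighter in SK-N-SH knockdown and in second line control.

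The lowest members are given first, since they limit what can be compared. EPSTI1 was unread, with 7 reads in all and at most 2 in any library. MX2, a large GTPase, had 7 reads, XAF1, an inhibitor of anti-apoptotic proteins, had 14, and OAS2 had 23. The groups with 0 reads were SK-N-SH knockdown for IFI44L, OASL and HERC6, SK-N-SH control for EPSTI1, second line knockdown for MX2, and second line control for IFITM1 and OASL. In all, 12 genes stayed under a mean of 1 FPKM in every group.

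The comparison of knockdown with control within each line used limma on log2(FPKM + 1), a scale that understates changes of low genes, so folds are ratios of mean FPKM and log2 folds are those of the model. Genes with a mean of at least 0.5 FPKM over the 12 libraries were tested, which leaves 32 of the 45. Of these, 27 were lower and 4 higher in libraries labelled SK-N-SH knockdown at limma adjusted p under 0.05, where 39.0% of all genes tested were lower and 40.7% higher (79.8% in either direction). The gene with no call was PLSCR1. In second line knockdown 27 were higher and 4 lower, where 39.9% of all genes tested were higher and 40.2% lower (80.0% in either direction), and IRF9 had no call. The median log2 fold of the 32 was -1.53 in SK-N-SH, against 0.02 for all genes tested, and 1.18 in the second line, against -0.02. These counts are descriptions: 15 of the 32 genes were under 0.5 FPKM in both SK-N-SH knockdown and the second line control, and entered the test through the groups where they were high, and OAS1 entered through the opposite groups. With no filter on low values, 32 of all 45 genes were lower and 6 higher in libraries labelled SK-N-SH knockdown (22.0% and 23.1% of 35897 genes, 45.1% in either direction), and 33 were higher and 7 lower in second line knockdown (21.9% and 23.5%, 45.4% in either direction).

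The libraries were also compared without a model. The 3 libraries labelled SK-N-SH knockdown all lay below the 3 of SK-N-SH control for 33 of the 45 genes and all above for 7, where 23.8% and 26.1% of the genes with a read did so. Those 7 include the unread EPSTI1, with 1 read in each library of SK-N-SH knockdown and 0 in SK-N-SH control. The 3 of second line knockdown all lay above the 3 of second line control for 34 and all below for 7, where the shares over all genes were 23.6% and 26.3%. Of the genes called, 26 were lower in libraries labelled SK-N-SH knockdown and higher in second line knockdown, and the same 4 (IFIT5, OAS1, OAS3 and BST2) were higher in SK-N-SH knockdown and lower in second line knockdown.

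**Figure D3:**
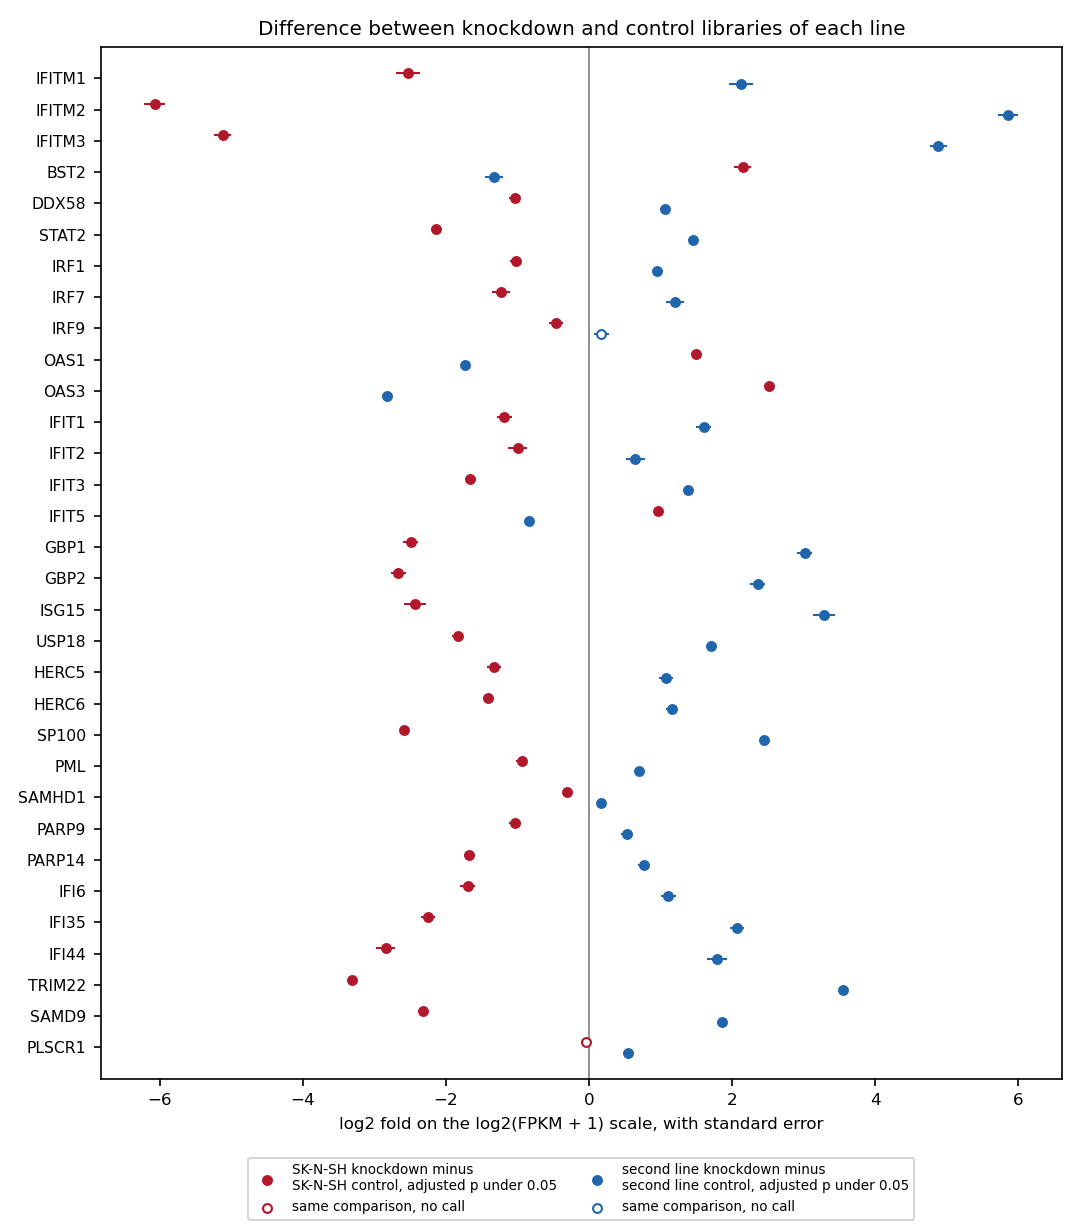
Log2 fold on the log2(FPKM + 1) scale with its standard error for the 32 tested genes, knockdown minus control in SK-N-SH (red) and in the second line (blue); filled points have a limma adjusted p under 0.05. Red points lie left of 0 and blue points right of it for most genes, and OAS1, OAS3, IFIT5 and BST2 are placed the other way round.

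Of the membrane proteins that restrict virus entry or release, the 3 IFITM genes were lower and BST2 higher in libraries labelled SK-N-SH knockdown, and the reverse held in the second line. IFITM3, which blocks fusion of viruses in endosomes, had 4.13, 3.88 and 4.35 FPKM in SK-N-SH knockdown, against 204, 161 and 168 FPKM in SK-N-SH control. IFITM3 had 171, 129.6 and 126 FPKM in second line knockdown, against 4.25, 3.56 and 3.63 FPKM in second line control. The groups did not overlap in either line, and the log2 fold was -5.12 in SK-N-SH (SE 0.12, limma adjusted p = 5.52e-12) and 4.88 in the second line (SE 0.12, limma adjusted p = 7.56e-12). IFITM2, a close paralog with the same role, had 1.32, 0.522 and 1.11 FPKM in SK-N-SH knockdown, against 139, 122 and 131 FPKM in SK-N-SH control. IFITM2 had 121, 94.7 and 93.0 FPKM in second line knockdown, against 0.758, 0.873 and 0.704 FPKM in second line control. Its log2 folds of -6.07 in SK-N-SH (SE 0.14, limma adjusted p = 7.12e-12) and 5.86 in the second line (SE 0.14, limma adjusted p = 8.80e-12) were the largest among the 32 genes in both lines.

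IFITM1, which acts at the cell surface, averaged 0.0372 ± 0.0324 FPKM in SK-N-SH knockdown and 5.13 ± 1.43 FPKM in SK-N-SH control (SD, n = 3 each). With 2 reads in SK-N-SH knockdown its ratio was 138-fold, with an exact binomial 95% counting interval of 38.5 to 1.16e+03. In second line knockdown it averaged 3.41 ± 0.841 FPKM, at least 62.4-fold above the level of 3 reads over second line control, which had 0 reads. Exons of IFITM1 and IFITM2 share 351 bases on the same strand (32.5% of the bases of IFITM1), and the 3 paralogs are alike in sequence, so counting can divide their reads and the level of each is uncertain. BST2, or tetherin, holds budding viruses at the cell surface. It falls outside the rule for naming genes and is given because it was called the other way, which was seen first. BST2 had 5.78, 5.91 and 5.01 FPKM in SK-N-SH knockdown, against 0.479, 0.567 and 0.383 FPKM in SK-N-SH control. BST2 had 0.843, 0.423 and 0.299 FPKM in second line knockdown, against 2.46, 2.98 and 2.91 FPKM in second line control. It was 11.7-fold higher in SK-N-SH knockdown (log2 fold 2.15, SE 0.12, limma adjusted p = 1.15e-08) and 5.34-fold lower in second line knockdown (log2 fold -1.33, SE 0.12, limma adjusted p = 8.30e-07), with no overlap in either line.

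The 3 cytoplasmic RNA sensors had their higher mean levels in SK-N-SH control and second line knockdown, and DDX58 alone was tested. DDX58, which encodes RIG-I, had 0.548, 0.594 and 0.659 FPKM in SK-N-SH knockdown, against 2.33, 2.08 and 2.45 FPKM in SK-N-SH control. DDX58 had 2.32, 1.89 and 2.35 FPKM in second line knockdown, against 0.457, 0.525 and 0.582 FPKM in second line control. Its groups did not overlap, and it was 3.81-fold lower in SK-N-SH knockdown (log2 fold -1.04, SE 0.08, limma adjusted p = 1.35e-07) and 4.19-fold higher in second line knockdown (log2 fold 1.06, SE 0.08, limma adjusted p = 1.03e-07). IFIH1, the sensor MDA5 of long double-stranded RNA, was not tested, being under the mean of 0.5 FPKM. IFIH1 had 0.0222, 0.0225 and 0 FPKM in SK-N-SH knockdown, against 1.32, 1.38 and 1.41 FPKM in SK-N-SH control. IFIH1 had 0.684, 0.475 and 0.459 FPKM in second line knockdown, against 0.0115, 0.0115 and 0 FPKM in second line control. Its ratio in SK-N-SH was 92.0-fold, from 4 reads in SK-N-SH knockdown and 394 in SK-N-SH control. In the second line it was 70.6-fold (exact 95% counting interval 19.1 to 584, from 146 reads in second line knockdown and 2 in second line control). DHX58, which encodes the regulator LGP2, was also untested and averaged 0.0105 ± 0.00910 FPKM in SK-N-SH knockdown against 0.505 ± 0.118 FPKM in SK-N-SH control, and 0.246 ± 0.0384 FPKM in second line knockdown against 0.00507 ± 0.00879 FPKM in second line control (SD, n = 3 each).

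All 4 transcription factors were lower in libraries labelled SK-N-SH knockdown, and 3 of them were higher in second line knockdown. STAT2, the subunit of the ISRE-binding complex that carries its transactivation domain, had 3.36, 4.05 and 3.57 FPKM in SK-N-SH knockdown, against 21.1, 17.9 and 19.3 FPKM in SK-N-SH control. STAT2 had 11.3, 11.3 and 10.4 FPKM in second line knockdown, against 3.16, 3.42 and 3.57 FPKM in second line control. Neither line showed an overlap, with a log2 fold of -2.13 in SK-N-SH (SE 0.07, limma adjusted p = 1.56e-10) and 1.46 in the second line (SE 0.07, limma adjusted p = 3.92e-09). IRF7, which amplifies interferon induction, had 1.43, 0.962 and 0.897 FPKM in SK-N-SH knockdown, against 4.31, 3.16 and 4.30 FPKM in SK-N-SH control. IRF7 had 4.41, 4.21 and 3.52 FPKM in second line knockdown, against 1.09, 1.11 and 1.35 FPKM in second line control. It was 3.58-fold lower in SK-N-SH knockdown (limma adjusted p = 1.79e-06) and 3.41-fold higher in second line knockdown (limma adjusted p = 2.13e-06). IRF1, a factor induced through GAS, averaged 0.320 ± 0.0363 FPKM in SK-N-SH knockdown and 1.69 ± 0.171 FPKM in SK-N-SH control, and 1.31 ± 0.0879 FPKM in second line knockdown and 0.187 ± 0.0652 FPKM in second line control (SD, n = 3 each). IRF9, the DNA-binding subunit of the complex, averaged 0.559 ± 0.159 FPKM in SK-N-SH knockdown and 1.14 ± 0.0845 FPKM in SK-N-SH control (log2 fold -0.46, SE 0.10, limma adjusted p = 0.00115, n = 3 each). In second line knockdown IRF9 averaged 0.634 ± 0.0171 FPKM, against 0.453 ± 0.167 FPKM in second line control, which did not pass (log2 fold 0.18, SE 0.10, limma adjusted p = 0.126, n = 3 each). Of the exon bases of IRF9, 48.4% are shared with another gene on the same strand and 22.0% of those of IRF1 with a gene on the opposite strand, and the strand setting of the counting is not stated in the labels.

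The oligoadenylate synthetases make the second messenger that activates RNase L, and the 2 members tested ran against the others. OAS3 had 8.77, 8.58 and 8.90 FPKM in SK-N-SH knockdown, against 0.852, 0.615 and 0.661 FPKM in SK-N-SH control. OAS3 had 0.639, 0.538 and 0.467 FPKM in second line knockdown, against 10.3, 9.28 and 10.4 FPKM in second line control. The groups were far apart in both lines, with OAS3 12.3-fold higher in SK-N-SH knockdown (log2 fold 2.51, SE 0.07, limma adjusted p = 2.03e-11) and 18.2-fold lower in second line knockdown (log2 fold -2.83, SE 0.07, limma adjusted p = 6.50e-12). OAS1 had 2.05, 2.15 and 1.93 FPKM in SK-N-SH knockdown, against 0.0325, 0.0748 and 0.141 FPKM in SK-N-SH control. OAS1 had 0.0112, 0 and 0 FPKM in second line knockdown, against 2.28, 2.34 and 2.37 FPKM in second line control. It was 24.7-fold higher in SK-N-SH knockdown (log2 fold 1.49, SE 0.06, limma adjusted p = 1.26e-09), and 38.1-fold higher without SK-N-SH control replicate 3. In the second line 1 read in the knockdown group stood against 585 in control, a 623-fold lower level with an exact 95% counting interval of 109 to 2.41e+04 (limma adjusted p = 3.18e-10). OAS2 and OASL, an oligoadenylate synthetase-like protein without that enzyme activity, were not tested: OAS2 had 4 to 8 reads in each group, and OASL averaged 0.197 FPKM in SK-N-SH control and 0.152 FPKM in second line knockdown, with 0 reads elsewhere. OAS1, OAS2 and OAS3 lie together in 104.9 kb of chromosome 12 (112906777 to 113011723 on GRCh38).

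IFIT proteins bind foreign RNA ends, and IFIT5 was set apart from its neighbours. IFIT5 had 8.54, 9.48 and 9.01 FPKM in SK-N-SH knockdown, against 4.13, 3.79 and 4.49 FPKM in SK-N-SH control. IFIT5 had 4.56, 4.89 and 4.85 FPKM in second line knockdown, against 9.56, 9.48 and 8.81 FPKM in second line control. It was 2.18-fold higher in SK-N-SH knockdown (log2 fold 0.96, SE 0.06, limma adjusted p = 3.00e-08) and 1.95-fold lower in second line knockdown (log2 fold -0.83, SE 0.06, limma adjusted p = 1.04e-07), without overlap. IFIT1 had 0.369, 0.336 and 0.387 FPKM in SK-N-SH knockdown, against 2.09, 1.98 and 2.22 FPKM in SK-N-SH control. IFIT1 had 4.07, 2.75 and 2.75 FPKM in second line knockdown, against 0.418, 0.292 and 0.379 FPKM in second line control. It moved opposite to IFIT5, 5.76-fold lower (limma adjusted p = 8.08e-07) in SK-N-SH knockdown and 8.77-fold higher (limma adjusted p = 5.04e-08) in second line knockdown. IFIT3 had 0.194, 0.131 and 0.193 FPKM in SK-N-SH knockdown, against 2.78, 2.36 and 2.98 FPKM in SK-N-SH control. IFIT3 had 2.50, 2.26 and 2.37 FPKM in second line knockdown, against 0.288, 0.222 and 0.366 FPKM in second line control. IFIT3 was 15.7-fold lower in SK-N-SH knockdown (limma adjusted p = 2.32e-09) and 8.15-fold higher in second line knockdown (limma adjusted p = 1.04e-08), and IFIT2 was 5.28-fold lower (limma adjusted p = 2.66e-05) and 3.34-fold higher (limma adjusted p = 0.000804), in the same comparisons. The 4 IFIT genes lie within 137.3 kb of chromosome 10 (89283694 to 89421001 on GRCh38).

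**Figure D4:**
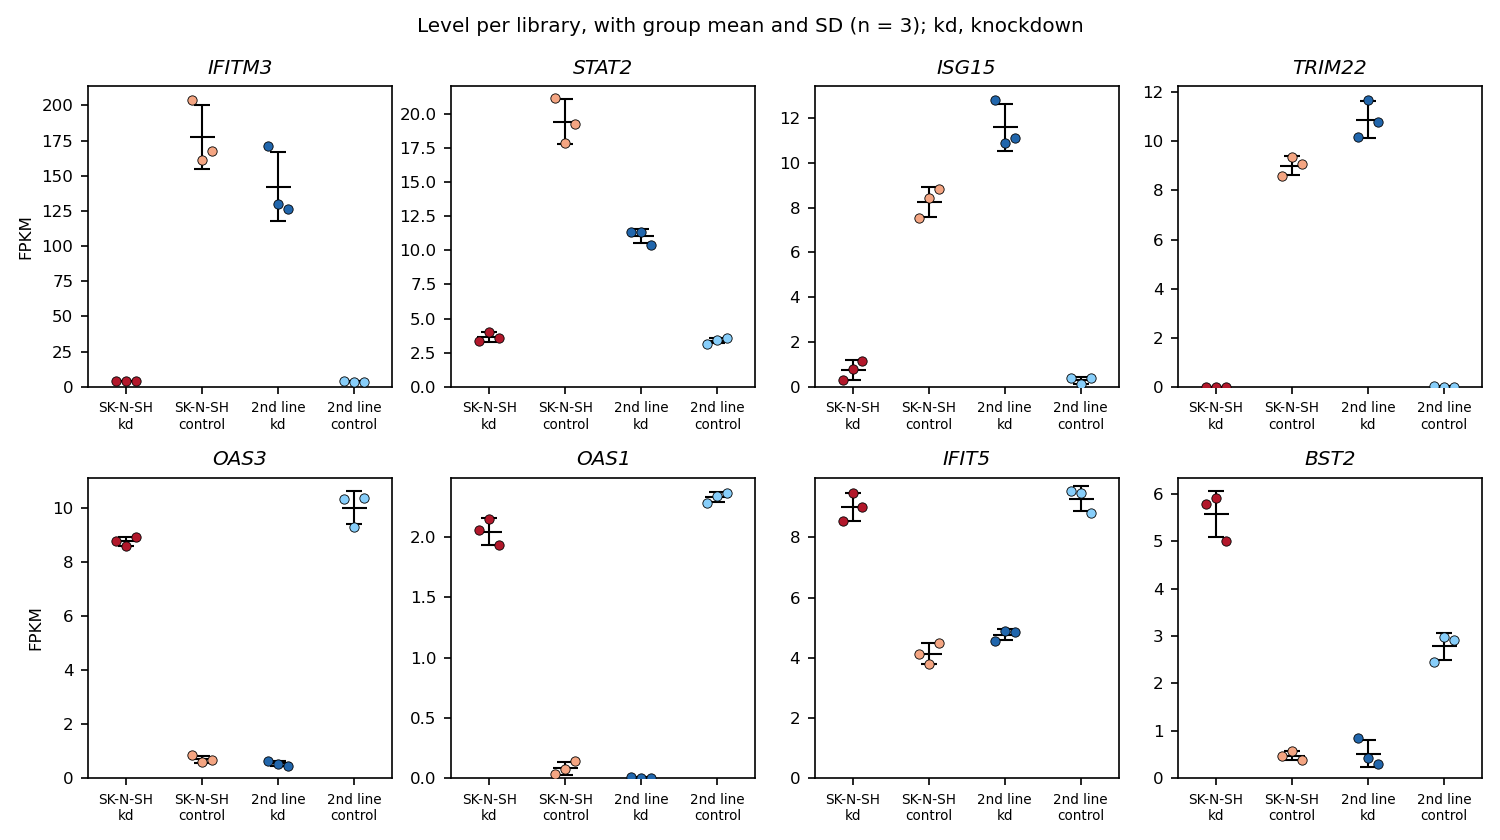
FPKM in each library (points) with group means and SD (bars, n = 3) for 8 interferon-stimulated genes, in the order SK-N-SH knockdown, SK-N-SH control, second line knockdown and second line control; vertical axes start at 0 and differ between panels. IFITM3, STAT2, ISG15 and TRIM22 are high in the middle groups, and OAS3, OAS1, IFIT5 and BST2 in the outer groups.

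Among the large GTPases, GBP1 and GBP2, which attack membranes of pathogens, were at 0.149 FPKM or less in each library of SK-N-SH knockdown and of second line control. GBP1 had 0.0114, 0.0115 and 0.0255 FPKM in SK-N-SH knockdown, against 5.31, 4.22 and 4.69 FPKM in SK-N-SH control. GBP1 had 5.84, 8.07 and 8.04 FPKM in second line knockdown, against 0.0469, 0.0117 and 0 FPKM in second line control. It was 294-fold lower in SK-N-SH knockdown, from 4 reads against 1330 (limma adjusted p = 1.09e-09), and 374-fold higher in second line knockdown, from 1925 reads against 5 (limma adjusted p = 1.91e-10). Without second line control replicate 1, which held most of those reads, the second line ratio was 1247-fold and rested on 1 read in replicate 2 and 0 in replicate 3. GBP2 had 0.0543, 0.0916 and 0.0711 FPKM in SK-N-SH knockdown, against 6.22, 4.84 and 6.48 FPKM in SK-N-SH control. GBP2 had 5.45, 4.30 and 4.18 FPKM in second line knockdown, against 0.149, 0.0933 and 0.0385 FPKM in second line control. It was 80.9-fold lower in SK-N-SH knockdown (limma adjusted p = 5.83e-10) and 49.6-fold higher in second line knockdown (limma adjusted p = 1.53e-09). MX1, the textbook marker of an interferon response, was under the filter and averaged 0.0320 ± 0.00207 FPKM in SK-N-SH knockdown against 0.0785 ± 0.0315 FPKM in SK-N-SH control, and 0.105 ± 0.0232 FPKM in second line knockdown against 0.0274 ± 0.0136 FPKM in second line control (SD, n = 3 each). Its libraries did not overlap in either line, and with no filter it was called in the second line (limma adjusted p = 0.00558) and not in SK-N-SH (limma adjusted p = 0.0666).

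The ISG15 system attaches the ubiquitin-like protein ISG15 to targets, and all 4 of its members were lower in SK-N-SH knockdown and higher in second line knockdown. ISG15 had 0.302, 0.794 and 1.15 FPKM in SK-N-SH knockdown, against 7.53, 8.43 and 8.81 FPKM in SK-N-SH control. ISG15 had 12.8, 10.9 and 11.1 FPKM in second line knockdown, against 0.373, 0.124 and 0.385 FPKM in second line control. It was 11.0-fold lower in SK-N-SH knockdown (log2 fold -2.43, SE 0.16, limma adjusted p = 4.13e-08) and 39.4-fold higher in second line knockdown (log2 fold 3.29, SE 0.16, limma adjusted p = 2.69e-09), with no overlap. USP18, the protease that removes ISG15 and restrains the type I receptor, had 0.0800, 0.0540 and 0.0599 FPKM in SK-N-SH knockdown, against 2.92, 2.53 and 2.94 FPKM in SK-N-SH control. USP18 had 2.87, 2.42 and 2.28 FPKM in second line knockdown, against 0.0824, 0.0550 and 0.0850 FPKM in second line control. It was 43.3-fold lower in SK-N-SH knockdown (limma adjusted p = 8.80e-10) and 34.004-fold higher in second line knockdown (limma adjusted p = 1.49e-09). HERC5, the ligase that attaches ISG15, was 56.1-fold lower in SK-N-SH knockdown, from 7 reads against 427 (limma adjusted p = 1.28e-07). It was 68.6-fold higher in second line knockdown, from 288 reads against 4 (limma adjusted p = 8.32e-07). Its neighbour HERC6 had 0 reads in SK-N-SH knockdown, at least 162-fold below SK-N-SH control, and was 183-fold higher in second line knockdown (exact 95% counting interval 50.7 to 1.53e+03).

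PML and SP100 build the nuclear bodies that bind incoming viral genomes. SP100 had 0.0315, 0.0364 and 0.00505 FPKM in SK-N-SH knockdown, against 4.98, 5.06 and 5.33 FPKM in SK-N-SH control. SP100 had 4.58, 4.50 and 4.68 FPKM in second line knockdown, against 0.00927, 0.0371 and 0.0239 FPKM in second line control. It was 211-fold lower in SK-N-SH knockdown (limma adjusted p = 1.79e-12) and 196-fold higher in second line knockdown (limma adjusted p = 2.44e-12), and its libraries varied little within the high groups. PML had 2.09, 2.22 and 2.54 FPKM in SK-N-SH knockdown, against 6.02, 4.68 and 5.23 FPKM in SK-N-SH control. PML had 4.07, 3.82 and 4.11 FPKM in second line knockdown, against 2.14, 2.06 and 2.01 FPKM in second line control. PML kept a level of about 2 FPKM in the low groups, and was 2.33-fold lower in SK-N-SH knockdown (limma adjusted p = 3.56e-07) and 1.93-fold higher in second line knockdown (limma adjusted p = 4.67e-06).

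Of the enzymes of nucleotides and nucleic acids, SAMHD1 alone was tested. SAMHD1, which depletes deoxynucleotides, had 2.21, 2.25 and 2.31 FPKM in SK-N-SH knockdown, against 3.06, 2.85 and 3.15 FPKM in SK-N-SH control. SAMHD1 had 2.42, 2.48 and 2.49 FPKM in second line knockdown, against 2.13, 2.05 and 2.03 FPKM in second line control. Its differences were the smallest of the genes called, 1.34-fold lower in SK-N-SH knockdown (log2 fold -0.30, SE 0.05, limma adjusted p = 9.76e-05) and 1.19-fold higher in second line knockdown (log2 fold 0.17, SE 0.05, limma adjusted p = 0.00544), and the second line call was lost when FPKM was rescaled to library totals (log2 fold 0.06, limma adjusted p = 0.289). CMPK2, a mitochondrial nucleotide kinase, had 0.356, 0.321 and 0.267 FPKM in SK-N-SH knockdown, against 0.175, 0.123 and 0.199 FPKM in SK-N-SH control. CMPK2 had 0.206, 0.165 and 0.0519 FPKM in second line knockdown, against 0.353, 0.218 and 0.267 FPKM in second line control. Its libraries did not overlap in either line, and it was not tested with the filter. RSAD2, which encodes viperin and lies beside CMPK2 on chromosome 2, had 10 to 24 reads in each group. The exonuclease gene ISG20 averaged 0.0608 ± 0.0357 FPKM in SK-N-SH knockdown against 0.201 ± 0.0413 FPKM in SK-N-SH control, and 0.299 ± 0.0600 FPKM in second line knockdown against 0.0884 ± 0.00816 FPKM in second line control (SD, n = 3 each).

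Both ADP-ribosyltransferase genes were lower in SK-N-SH knockdown and higher in second line knockdown; whether the sizes of the folds differed between lines was not tested. PARP14, a mono-ADP-ribosyltransferase, had 1.28, 1.14 and 0.977 FPKM in SK-N-SH knockdown, against 5.86, 5.17 and 6.37 FPKM in SK-N-SH control. PARP14 had 2.44, 1.99 and 2.38 FPKM in second line knockdown, against 0.914, 0.932 and 0.903 FPKM in second line control. It was 5.11-fold lower in SK-N-SH knockdown (log2 fold -1.67, SE 0.08, limma adjusted p = 3.71e-09) and 2.48-fold higher in second line knockdown (log2 fold 0.77, SE 0.08, limma adjusted p = 3.61e-06). PARP9, which works with the ligase DTX3L, had 1.06, 1.13 and 1.07 FPKM in SK-N-SH knockdown, against 3.48, 2.78 and 3.58 FPKM in SK-N-SH control. PARP9 had 1.86, 1.47 and 1.59 FPKM in second line knockdown, against 0.766, 0.930 and 0.750 FPKM in second line control. Its groups did not overlap, at 3.02-fold lower in SK-N-SH knockdown (limma adjusted p = 3.72e-07) and 2.01-fold higher in second line knockdown (limma adjusted p = 0.000106).

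IFI6 and IFI27 belong to one family of small mitochondrial proteins but were ordered oppositely. IFI6, which is known to restrain apoptosis, had 7.09, 5.32 and 6.19 FPKM in SK-N-SH knockdown, against 21.0, 22.4 and 23.3 FPKM in SK-N-SH control. IFI6 had 16.5, 16.1 and 16.6 FPKM in second line knockdown, against 7.71, 7.85 and 5.79 FPKM in second line control. It was 3.59-fold lower in SK-N-SH knockdown (limma adjusted p = 3.23e-08) and 2.30-fold higher in second line knockdown (limma adjusted p = 1.38e-06). IFI27 had 0.315, 0.430 and 0.353 FPKM in SK-N-SH knockdown, against 0.0129, 0.0765 and 0.0516 FPKM in SK-N-SH control. IFI27 had 0.0669, 0.0285 and 0.0135 FPKM in second line knockdown, against 0.324, 0.452 and 0.393 FPKM in second line control. It was under the filter for testing, with group sums of 8 to 82 reads, and its libraries did not overlap in either line.

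Among the remaining members, TRIM22, a ubiquitin ligase that restricts several viruses, came nearest to an on and off pattern. TRIM22 had 0, 0.00955 and 0.0106 FPKM in SK-N-SH knockdown, against 8.58, 9.36 and 9.08 FPKM in SK-N-SH control. TRIM22 had 10.2, 11.7 and 10.8 FPKM in second line knockdown, against 0.0291, 0 and 0 FPKM in second line control. In reads this was 2 against 3050 in SK-N-SH (1.34e+03-fold lower in SK-N-SH knockdown, exact 95% counting interval 380 to 1.14e+04, limma adjusted p = 4.57e-13) and 3458 against 3 in the second line (1.12e+03-fold higher in second line knockdown, interval 378 to 5.37e+03, limma adjusted p = 2.38e-13). IFI35, a cytokine-like regulator, had 0.518, 0.204 and 0.517 FPKM in SK-N-SH knockdown, against 5.68, 5.25 and 6.05 FPKM in SK-N-SH control. IFI35 had 3.91, 4.41 and 3.76 FPKM in second line knockdown, against 0.267, 0.119 and 0.214 FPKM in second line control. It was 13.7-fold lower in SK-N-SH knockdown (limma adjusted p = 1.39e-09) and 20.1-fold higher in second line knockdown (limma adjusted p = 2.60e-09). SAMD9, an inhibitor of translation, was 27.7-fold lower in SK-N-SH knockdown (limma adjusted p = 6.18e-11) and 28.97-fold higher in second line knockdown (limma adjusted p = 3.82e-10). IFI44 was 137-fold lower in SK-N-SH knockdown (limma adjusted p = 2.98e-09) and 36.1-fold higher in second line knockdown (limma adjusted p = 1.68e-07). The SK-N-SH ratio rests on 5 reads in SK-N-SH knockdown against 749 in SK-N-SH control. It was 219.9-fold without SK-N-SH knockdown replicate 1, with 1 read in each of replicates 2 and 3. Its neighbour IFI44L, with 0 reads in SK-N-SH knockdown, was at least 89.9-fold lower there.

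PLSCR1, a phospholipid scramblase that restricts virus entry, was chosen for its order after its values were seen. PLSCR1 had 2.30, 1.87 and 2.16 FPKM in SK-N-SH knockdown, against 2.50, 1.90 and 2.19 FPKM in SK-N-SH control. PLSCR1 had 2.10, 2.05 and 2.06 FPKM in second line knockdown, against 1.09, 1.17 and 1.02 FPKM in second line control. Its libraries overlapped in SK-N-SH (log2 fold -0.04, SE 0.08, limma adjusted p = 0.656) and were 1.89-fold apart in the second line (log2 fold 0.55, SE 0.08, limma adjusted p = 3.80e-05).

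The difference between the lines was put to an interaction term, second line minus SK-N-SH. Libraries labelled knockdown in each line resembled the control of the other line, so its values repeat the opposite folds within the lines. They are no separate support for those folds. As within the lines, 15 of the 32 genes entered the test through the groups where they were high. All 32 genes tested passed, 28 with a more positive and 4 with a more negative difference, where 41.8% and 43.1% of all genes tested did (84.9% in either direction). With no filter 34 and 7 of 45 did, where 24.9% and 26.6% of 35897 genes did (51.5% in either direction). The most positive were IFITM2 at 11.93 (SE 0.20, limma adjusted p = 1.89e-13) and IFITM3 at 10.004 (SE 0.17, limma adjusted p = 1.55e-13) on the log2 scale, and the most negative OAS3 at -5.34 (SE 0.10, limma adjusted p = 2.67e-13).

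Across the lines, libraries labelled SK-N-SH knockdown were set against second line control, the pair with the low sums. Of the 32 genes, 2 were higher and 0 lower in SK-N-SH knockdown at limma adjusted p under 0.05, where 2.26% and 3.12% of all genes tested were (5.39% in either direction). At an unadjusted p under 0.05 limma gave 5 higher genes (BST2, PLSCR1, ISG15, PARP9 and IFI35) and 1 lower gene, OAS3, and voom on the recovered reads gave 2 higher and 0 lower at an adjusted p. With no filter the counts over all 45 genes were also 2 and 0, where 1.05% and 1.43% of all genes were called (2.48% in either direction). BST2 was 1.9997-fold higher (log2 fold 0.80, SE 0.12, limma adjusted p = 0.00318), a call lost with a pseudocount of 0.1 (limma adjusted p = 0.0650). PLSCR1 was 1.93-fold higher (log2 fold 0.57, SE 0.08, limma adjusted p = 0.00164). The libraries did not overlap for 6 genes that were higher and 3 that were lower, where 7.35% and 8.56% of genes with a read did so, and overlapped for 36. The remaining 30 tested genes did not pass, which does not show that their levels were equal.

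Second line knockdown was set against SK-N-SH control, the pair with the high sums. Of the 32 genes, 5 were higher and 15 lower in second line knockdown, where 26.9% and 17.2% of all genes tested were (44.1% in either direction), and with no filter 3 of 45 were higher and 14 lower, where 11.7% and 7.80% were (19.5% in either direction). The higher genes were GBP1 (1.54-fold, log2 fold 0.53, SE 0.11, limma adjusted p = 0.00219), ISG15 (1.40-fold, limma adjusted p = 0.0398), IFIT1 (1.52-fold, limma adjusted p = 0.00803), TRIM22 (1.21-fold, limma adjusted p = 0.00462) and IFIT5 (1.15-fold, limma adjusted p = 0.0403). On the log2(FPKM + 1) scale the largest falls were those of PARP14, 2.56-fold lower (log2 fold -1.06, SE 0.08, limma adjusted p = 6.50e-06), IFI44, 2.34-fold lower (log2 fold -1.01, SE 0.14, limma adjusted p = 0.000178), and STAT2, 1.76-fold lower (log2 fold -0.76, SE 0.07, limma adjusted p = 2.20e-05). Among the called genes, PARP9 (2.003-fold) and IRF9 (1.81-fold) were lower by more than STAT2 by the ratio of means. OAS1 had no call but was 22.1-fold lower, from 1 read against 23 (exact 95% counting interval 3.51 to 890). It was called lower with voom on the recovered reads and with a pseudocount of 0.1 (limma adjusted p = 0.00179 and 0.0112). IFI44L (3.64-fold), IFIH1 (2.54-fold) and DHX58 (2.05-fold) were under the filter and were called lower with no filter. Of the 20 calls of the main fit, 10 were lost under at least 1 other setting or without 1 library, among them ISG15, IFIT1, IFIT5 and TRIM22. The 10 kept throughout were GBP1, which was higher, and IFI44, IFI6, IRF9, PARP14, PARP9, PML, SAMD9, SAMHD1 and STAT2, which were lower. The libraries did not overlap for 5 genes that were higher and 20 that were lower, where 16.0% and 12.6% of genes with a read did so.

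**Figure D5:**
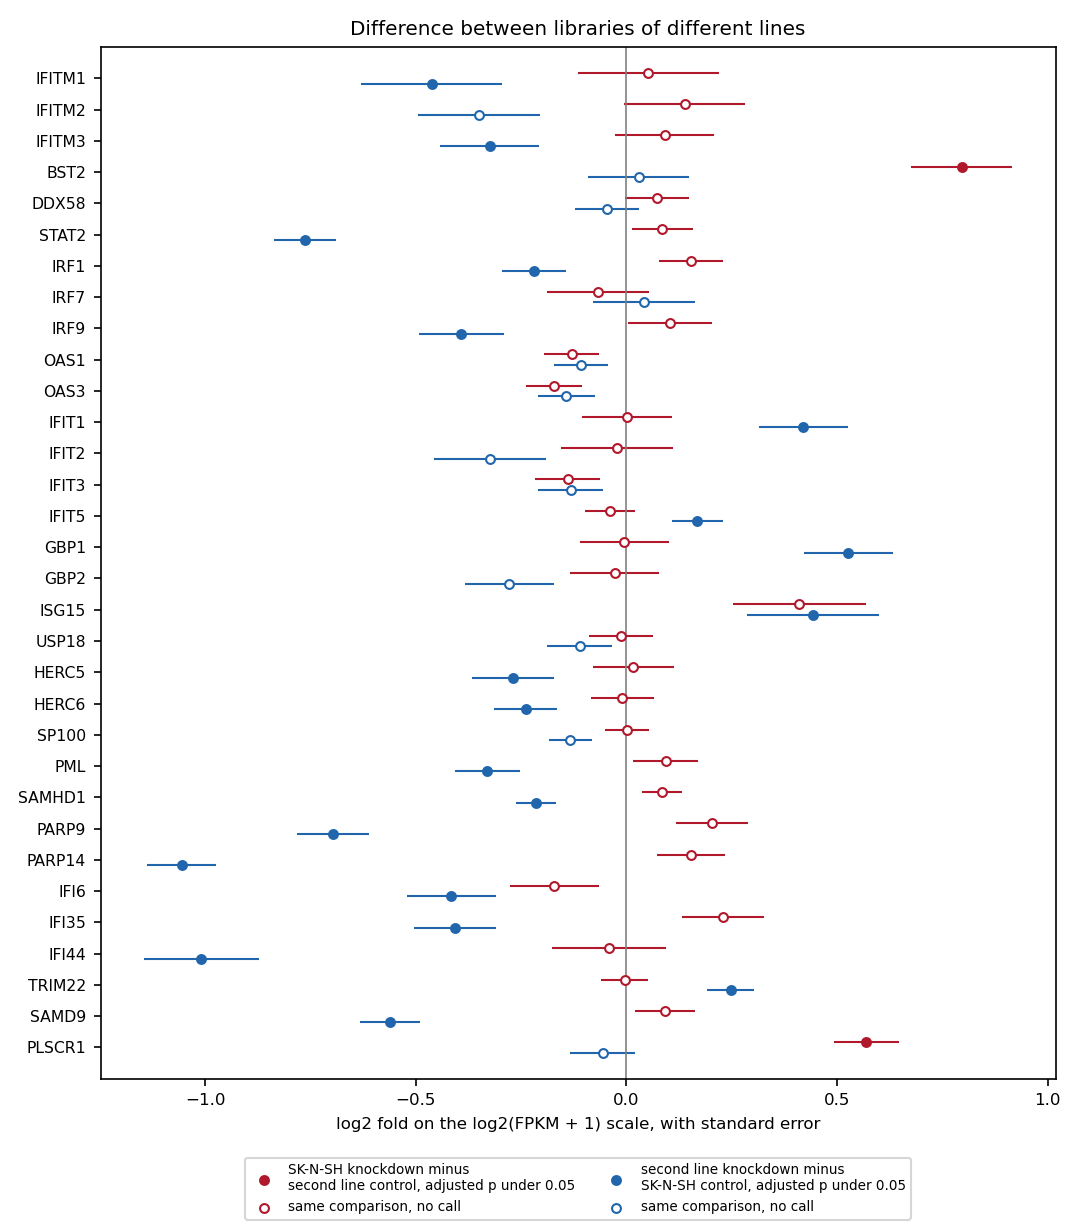
Log2 fold on the log2(FPKM + 1) scale with its standard error for the 32 tested genes across the lines, SK-N-SH knockdown minus second line control (red) and second line knockdown minus SK-N-SH control (blue); filled points have a limma adjusted p under 0.05. The filled red points are BST2 and PLSCR1, and blue points run from PARP14 at -1.06 to GBP1 at 0.53.

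The pathway above the 45 genes was described by lists of other genes, given as counts, to be read beside the 39.0% of all genes tested that were lower and 40.7% higher in SK-N-SH knockdown, and the 39.9% higher and 40.2% lower in second line knockdown. The 13 interferon genes listed were all below the filter and summed to at most 0.1168 FPKM in any library. Of the 6 receptor genes 3 were tested. IFNAR1, a chain of the type I receptor, averaged 5.18 ± 0.324 FPKM in SK-N-SH knockdown and 9.44 ± 0.368 FPKM in SK-N-SH control (log2 fold -0.76, limma adjusted p = 3.77e-06, n = 3 each), and 10.5 ± 1.33 FPKM in second line knockdown and 4.96 ± 0.308 FPKM in second line control (log2 fold 0.94, limma adjusted p = 5.41e-07, n = 3 each). IFNGR2, a chain of the interferon gamma receptor, averaged 8.43 ± 1.01 FPKM in SK-N-SH knockdown and 28.9 ± 4.12 FPKM in SK-N-SH control, and 45.8 ± 10.6 FPKM in second line knockdown and 9.16 ± 0.734 FPKM in second line control (SD, n = 3 each). Its log2 folds were -1.66 in SK-N-SH (limma adjusted p = 9.65e-07) and 2.18 in the second line (limma adjusted p = 8.11e-08), and 12.8% of its exon bases overlap an antisense gene. IFNGR1, the other chain, was 0.25 higher on the log2 scale in SK-N-SH knockdown (limma adjusted p = 0.0432) and did not pass in the second line (log2 fold -0.23, limma adjusted p = 0.0581). IFNAR2, IL10RB and IFNLR1 were not tested, with means of at most 0.542 FPKM in any group. IFNAR2 shares 44.2% and IL10RB 38.1% of their exon bases with 1 gene on the same strand, so counting can lose their reads.

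Of 12 genes of JAK-STAT signalling and its inhibitors, 11 were tested. In libraries labelled SK-N-SH knockdown 3 were higher and 6 lower, and in second line knockdown 8 were higher and 3 lower, where 79.8% of all genes tested were called in either direction in SK-N-SH and 80.0% in the second line. SOCS1, a feedback inhibitor of JAK kinases, averaged 0.319 ± 0.0338 FPKM in SK-N-SH knockdown and 17.1 ± 0.800 FPKM in SK-N-SH control, and 12.7 ± 3.28 FPKM in second line knockdown and 0.154 ± 0.106 FPKM in second line control (SD, n = 3 each). SOCS3, another feedback inhibitor, had log2 folds of -2.63 in SK-N-SH (limma adjusted p = 2.49e-08) and 3.04 in the second line (limma adjusted p = 6.27e-09).

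Of 16 genes of nucleic acid sensing and interferon induction 10 were tested, with 1 higher and 8 lower in libraries labelled SK-N-SH knockdown and 9 higher and 0 lower in second line knockdown, against the same shares of all genes tested (39.0% lower and 40.7% higher in SK-N-SH, and 39.9% higher and 40.2% lower in the second line). The gene with no call in the second line was MAVS, the adaptor of the RNA sensors (log2 fold -0.07, limma adjusted p = 0.206, named after its values were seen). MAVS had no call in SK-N-SH either (limma adjusted p = 0.196). TRAF3, also named after its values were seen, was called higher under the knockdown label in both lines. It averaged 8.14 FPKM in SK-N-SH knockdown and 6.18 FPKM in SK-N-SH control. In second line knockdown it averaged 11.55 FPKM, against 8.94 FPKM in second line control (n = 3 each). STING1, the adaptor of cytosolic DNA sensing, averaged 0.341 ± 0.0624 FPKM in SK-N-SH knockdown and 41.9 ± 6.99 FPKM in SK-N-SH control, and 30.7 ± 3.35 FPKM in second line knockdown and 0.415 ± 0.0974 FPKM in second line control (SD, n = 3 each). IKBKE, a kinase that activates IRF3, had log2 folds of -2.83 in SK-N-SH (limma adjusted p = 5.11e-12) and 3.07 in the second line (limma adjusted p = 2.34e-12). IRF3 itself had log2 folds of -1.71 in SK-N-SH (limma adjusted p = 2.78e-09) and 1.86 in the second line (limma adjusted p = 1.21e-09).

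Of a list of 44 other interferon-stimulated genes, which shares IFI16 with the sensing list, 30 were tested, with 5 higher and 22 lower in libraries labelled SK-N-SH knockdown and 22 higher and 6 lower in second line knockdown, where 39.0% of all genes tested were lower and 40.7% higher in SK-N-SH, and 39.9% higher and 40.2% lower in the second line. SP140L, a relative of SP100, had log2 folds of -2.85 in SK-N-SH (limma adjusted p = 8.77e-12) and 2.93 in the second line (limma adjusted p = 6.33e-12), SAMD9L of -2.65 in SK-N-SH (limma adjusted p = 9.19e-11) and 1.70 in the second line (limma adjusted p = 3.87e-09), and GBP3 of -2.27 in SK-N-SH (limma adjusted p = 5.19e-11) and 2.17 in the second line (limma adjusted p = 6.57e-11). The 5 higher in SK-N-SH knockdown, named after their values were seen, were EIF2AK2, the kinase PKR that is activated by double-stranded RNA, with TRIM14, PNPT1, LAP3 and N4BP1. EIF2AK2 averaged 15.8 ± 0.734 FPKM in SK-N-SH knockdown and 8.79 ± 0.334 FPKM in SK-N-SH control, and 7.54 ± 0.469 FPKM in second line knockdown and 15.6 ± 0.303 FPKM in second line control (SD, n = 3 each). LAP3 was higher in both lines, by log2 folds of 0.22 in SK-N-SH (limma adjusted p = 0.00639) and 0.26 in the second line (limma adjusted p = 0.00255).

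Summed mesenchymal and epithelial markers were higher in the same groups as the summed 45 genes. Summed noradrenergic and leukocyte markers were higher in the other groups. Libraries labelled SK-N-SH knockdown had summed levels of 12 noradrenergic markers of 2242 to 2415 FPKM, against 84.4 to 97.64 FPKM in SK-N-SH control, and second line knockdown had 70.64 to 86.57 FPKM, against 2406 to 2488 FPKM in second line control. MYCN alone averaged 1027.9 FPKM in SK-N-SH knockdown and 1040.4 FPKM in second line control. All 12 were higher in SK-N-SH knockdown at limma adjusted p under 0.05, where 40.7% of all genes tested were. All 12 were lower in second line knockdown, where 40.2% of all genes tested were. The sum of 10 mesenchymal markers ran the other way, with 119 to 126 FPKM in SK-N-SH knockdown against 836.8 to 854.6 FPKM in SK-N-SH control, and 801.6 to 891 FPKM in second line knockdown against 103.7 to 108.6 FPKM in second line control. VIM and FN1 averaged 327 and 216 FPKM in SK-N-SH control. In SK-N-SH knockdown 8 of the 10 were lower at limma adjusted p under 0.05 (39.0% of all genes tested were), and FOSL2 and SNAI2 had no call. In second line knockdown all 10 were higher (39.9% of all genes tested were). The part of these states in the levels of the interferon-stimulated genes was not tested. The 12 leukocyte markers summed to 1.489 to 1.729 FPKM in SK-N-SH knockdown against 0.1997 to 0.4052 FPKM in SK-N-SH control, and to 0.4345 to 0.7254 FPKM in second line knockdown against 1.078 to 1.497 FPKM in second line control. Most of that difference was PTPRC, at a mean of 1.22 FPKM in SK-N-SH knockdown against 0.0291 FPKM in SK-N-SH control, and 0.0310 FPKM in second line knockdown against 0.711 FPKM in second line control. CD74 ran the other way in the second line, with 0.106 FPKM in knockdown against 0.04996 FPKM in control, CD3D, CD3E, MS4A1 and TYROBP had 0 reads, and the part of leukocytes was not tested. The 4 epithelial markers summed to 0.7117 to 0.8746 FPKM in SK-N-SH knockdown against 19.38 to 25.08 FPKM in SK-N-SH control, and to 23.79 to 29.43 FPKM in second line knockdown against 0.7811 to 1.031 FPKM in second line control. Of the 3 tested, KRT8 and KRT18 were lower and EPCAM higher in SK-N-SH knockdown (EPCAM log2 fold 0.40, limma adjusted p = 0.00528), with the reverse in the second line (EPCAM log2 fold -0.45, limma adjusted p = 0.00255), CDH1 had at most 0.0122 FPKM in any group mean, and the part of epithelial cells was not tested. Endothelial markers stayed at or below 0.1949 FPKM and Schwann cell markers at or below 1.832 FPKM in sum.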

How the data were processed

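The authors deposited 1 table of FPKM. The submitters' processing notes name HISAT2 2.0.5, featureCounts 1.5.0-p3 and the build mm10, but the table lists human genes at the positions of GENCODE 29 on GRCh38, which is used here. The strand setting is not stated. FPKM times length gave whole reads for 100% of values (tolerance 0.05 reads), so depth is known, and the scaling follows median-of-ratios size factors. Floors are 3 reads over a group and, like the intervals, cover counting error only. Groups come from the sample titles. log2(FPKM + 1) was fitted with limma 3.58.1 in R 4.3.3, 1 model of 4 group means with an intensity trend, for 15856 genes with a mean of at least 0.5 FPKM over 12 libraries, two-sided, with Benjamini-Hochberg adjustment over the 15856. The main fit was first tried on simulated data for the comparisons within and across the lines. The interaction and the alternative settings were not tried in this way. The members and lists were chosen with earlier results of these data known. Each role's 2 highest members and its largest called fold are given per library, with up to 3 genes per pathway list, of which 1 gene is not reported here. A member under 3 reads in every library is called unread. Promoter sequences are from RefSeq (GRCh38.p14). Alternatives were a pseudocount of 0.1, no filter, a minimum of 2 FPKM, library-total scaling, voom on recovered reads, only the groups compared, a replicate block and leaving out each library.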

Additional observations from a re-analysis of the deposited data

Results flagged for a closer look

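The difference between knockdown and control was not the same in the labelled lines, by the interaction term of the limma model. Of the 32 genes tested, 28 had a more positive difference in the second line and 4 a more negative one, where 41.8% and 43.1% of all genes tested did (84.9% in either direction). On the log2(FPKM + 1) scale, second line minus SK-N-SH, this was 11.93 for IFITM2, 10.004 for IFITM3, 6.87 for TRIM22, 5.72 for ISG15 and 5.51 for GBP1. It was -5.34 for OAS3, -3.48 for BST2, -3.22 for OAS1 and -1.80 for IFIT5. Libraries labelled SK-N-SH knockdown resembled second line control, so the sign of these values rests on the labels, which TSPYL5 goes against in SK-N-SH. For the same reason the values repeat the opposite folds within the lines and are no separate support for them.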

How the results depend on the processing

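No result changed direction with a call in both settings under the 7 settings tried or without any 1 library. In SK-N-SH knockdown against control 0 of 31 calls were lost, and 0 of 32 calls of the interaction. In the second line 1 of 31 was lost (SAMHD1, library totals). In second line knockdown set against SK-N-SH control 10 of 20 calls were lost somewhere and 5 genes were gained. With a minimum mean of 2 FPKM only 20 of the genes were tested, and 17 were lower in SK-N-SH knockdown, 17 higher in second line knockdown, 17 had a more positive interaction, and 1 was higher in SK-N-SH knockdown set against second line control. With no filter, 7 were lower in second line knockdown against control, 7 had a more negative interaction, and 3 were higher in second line knockdown set against SK-N-SH control. That last count was also 3 with a pseudocount of 0.1, 2 with library totals, 3 with only the groups compared and 3 to 4 without 1 library, where lower genes numbered 10 to 17. With a pseudocount of 0.1, 1 gene was higher in SK-N-SH knockdown set against second line control, and without SK-N-SH knockdown replicate 1 ISG15 was called too (limma adjusted p = 0.0242). The cause was not tested. Library-total scaling moved the median of all genes by -0.12 in the second line and changed 17 of 173 group levels by at least 1 SD, by ratios of 0.924 to 1.07. Replicate numbers did not pair the libraries (same-number correlations of deviations -0.075 to 0.102). With a replicate block the counts higher and lower were 4 and 27 in SK-N-SH, 27 and 4 in the second line, 2 and 0 in SK-N-SH knockdown set against second line control, 4 and 15 in second line knockdown set against SK-N-SH control, and 28 and 4 for the interaction. Depth limits EPSTI1, MX2, XAF1 and OAS2, whose differences were not detectable with so few reads.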
